A study of Mus musculus with 36 samples.

Results

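The polyol pathway, fructose breakdown and inositol metabolism were followed through 8 genes chosen by name, namely Akr1b3, Sord, Khk, Miox, Isyna1, Impa1, Slc5a3 and Slc5a11. Of these 8 genes, 7 had a row in the count table of 15730 genes, and all 7 passed the filter on low counts. Slc5a3 had no row and was not analysed here.

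In the polyol pathway, aldose reductase (Akr1b3) reduces glucose to sorbitol and sorbitol dehydrogenase (Sord) oxidises sorbitol to fructose, a route that carries more glucose when glucose is high. Ketohexokinase (Khk) phosphorylates fructose, mainly in proximal tubule, liver and intestine. Sorbitol and myo-inositol are also organic osmolytes of kidney cells. Myo-inositol is made from glucose 6-phosphate by inositol-3-phosphate synthase (Isyna1) and inositol monophosphatase (Impa1), is taken up by the sodium-coupled transporters Slc5a3 and Slc5a11, and is broken down to glucuronate by myo-inositol oxygenase (Miox), an enzyme of proximal tubule.

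RNA was sequenced from kidney cortex of male ApoE−/− mice on a C57BL/6 background, so that the nondiabetic controls also lacked apolipoprotein E, a carrier of plasma lipoproteins. The diabetic groups had received streptozotocin, a toxin of pancreatic beta cells, at 55 mg/kg in 5 daily intraperitoneal injections from 6 weeks of age. Diabetic and nondiabetic mice were each given lipoxin A4 (LXA4, a lipid mediator of the resolution of inflammation) at 5 µg/kg, benzo-LXA4 (a synthetic analog) at 1.7 µg/kg, or 0.1% ethanol vehicle, with 2 injections per week. An intervention study of 16 weeks, treated in weeks 10 to 16, is described in the labels, which do not tie these libraries to it. There were 6 libraries in each of the 6 groups, and the labels do not say that each was a separate mouse, so p-values measure the spread between these libraries, which may be partly technical.

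Total counts ran from 8896193 to 43305005 per library. In the shallowest library, diabetic LXA4 replicate 6, 4 noncoding genes held 56.7% of all counts, and in nondiabetic vehicle replicate 3, with 10086698 counts, they held 17.5%, against at most 6.73% in the other 34 libraries. Where either library held an extreme value of Miox, Khk or Sord, the diabetes value under that treatment is also given without both. The same was done for Impa1 with LXA4. Of 16 proximal tubule markers, all were measured and none was at 0 in any library, with a median of 4790 CPM (counts scaled to a library of fixed total) for Lrp2, the endocytic receptor megalin. Markers of inner medulla and urothelium, which cortex should lack, were also present, with summed CPM of 1.009 to 101.3 over the 36 libraries for the 5 of 6 that were measured. Among these, the urea transporter Slc14a2 was at 0 in 2 libraries and Krt5 was at 0 in 10. Adipose markers summed to 463.1 CPM in nondiabetic benzo-LXA4 replicate 1.

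On GRCm38, Akr1b3 lies at chr6:34302434-34317478 on the minus strand, Sord at chr2:122234749-122265340 on the plus strand and Khk at chr5:30921431-30931248 on the plus strand. Isyna1 lies at chr8:70594373-70597290 on the plus strand, Impa1 at chr3:10311956-10331439 on the minus strand, Miox at chr15:89334398-89337015 on the plus strand and Slc5a11 at chr7:123214780-123273253 on the plus strand. All are protein-coding genes. Exons of Impa1 overlap those of Gm38303 on the same strand, so reads there may have been split between them. The antisense gene Gm14546 overlaps Akr1b3 without exon overlap, and Akr1b3 has the near relatives Akr1b7, Akr1b8 and Akr1b10, so its counts carry that uncertainty.

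The promoters of Miox and Khk are shown because these genes had the most negative called fold changes in diabetic mice, a choice made after their values were seen. Each runs from 250 bases before to 50 bases after the start of the gene in RefSeq, on GRCm38.p6, plus strand, 5′ to 3′, with motif matches in capitals. The Miox promoter is chr15:89334223-89334522 and the Khk promoter is chr5:30921309-30921608.
Miox: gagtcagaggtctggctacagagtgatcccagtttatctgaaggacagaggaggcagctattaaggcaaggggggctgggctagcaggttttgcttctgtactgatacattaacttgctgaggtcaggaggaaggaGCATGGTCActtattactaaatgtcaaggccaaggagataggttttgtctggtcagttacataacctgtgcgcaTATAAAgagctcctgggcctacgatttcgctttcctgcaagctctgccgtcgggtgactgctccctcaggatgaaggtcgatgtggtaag
Khk: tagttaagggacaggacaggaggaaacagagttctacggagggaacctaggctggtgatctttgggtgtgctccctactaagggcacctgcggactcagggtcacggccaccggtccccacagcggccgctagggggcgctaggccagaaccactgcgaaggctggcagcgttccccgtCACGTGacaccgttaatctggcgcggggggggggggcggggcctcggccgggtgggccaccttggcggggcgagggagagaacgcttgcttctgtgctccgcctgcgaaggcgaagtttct
In all, 5 short motifs were searched on both strands of the 6 members' promoters that the RefSeq table holds. The motifs were CACGTG (an E-box), TGGAAA (the core of a tonicity element), TGACNNNGC (the core of an antioxidant element), GCGTGGGCG (an EGR site) and TATAAA. The Miox promoter held the antioxidant core on the reverse strand, as GCATGGTCA, from -114 to -106, and TATAAA from -40 to -35, counted from the RefSeq start. The Khk promoter held CACGTG from -71 to -66. For both genes the RefSeq start lies downstream of the first base of the gene location given above. The Khk CACGTG and the Miox TATAAA therefore fall inside those locations. No match lay in the promoters of Sord, Slc5a11, Isyna1 and Slc5a3, and the matches shown do not overlap each other. Such matches are common, since of 32851 promoters 12.4% held the antioxidant core, 13.6% held TATAAA, 7.15% held CACGTG, 21.4% held TGGAAA and 0.612% held the EGR site. They describe letters in these windows and no binding.

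Per kilobase of the principal transcript, Miox, Sord and Khk stood above the other members in every group. Miox had a median level of 552 CPM per kilobase over the 36 libraries (296.9 to 997.3). Sord followed at 363 CPM per kilobase (263.5 to 684.9), and Khk at 184 CPM per kilobase (115.8 to 302.9). The ranges of these 3 neighbours overlapped. The inositol transporter Slc5a11 came next with a median of 30.1 CPM per kilobase (22.4 to 41.19). Akr1b3 at 13.0 CPM per kilobase (7.924 to 99.35), Impa1 at 12.7 (10.15 to 15.47) and Isyna1 at 10.8 (7.764 to 14.95) came last, with overlapping ranges. With the union of all annotated exons as the length (8384 bases for Akr1b3, against 1387 for its principal transcript), the Akr1b3 level would be 2.16 CPM per kilobase, rank 7 of 7 in place of rank 5. Akr1b3 was the most variable member, its highest library standing 12.5 times above its lowest, against 1.52 times for Impa1.

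**Figure D1:**
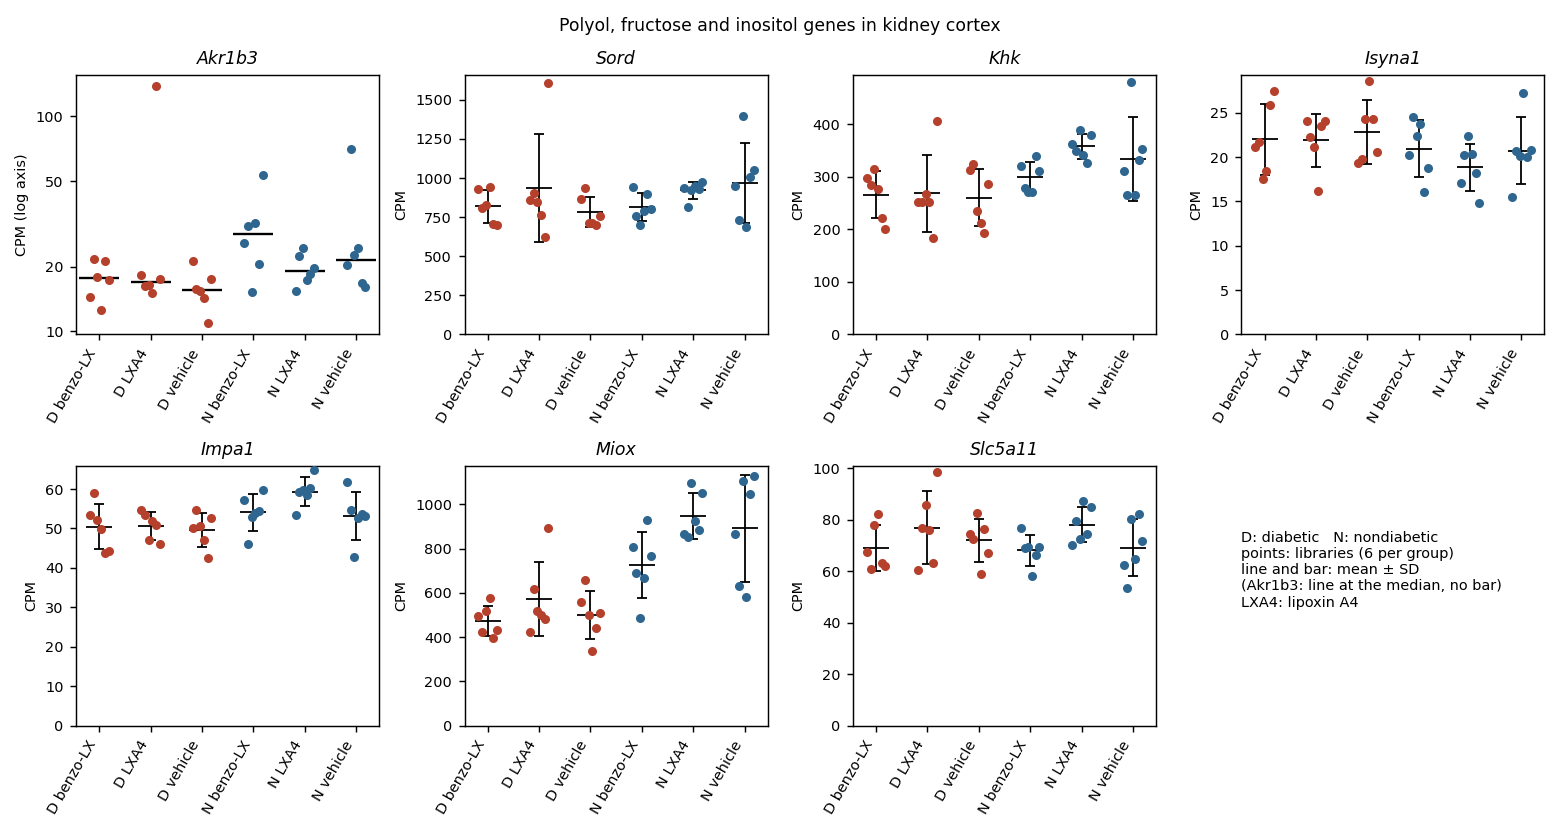
CPM of each measured member in the 36 libraries, diabetic groups in red and nondiabetic groups in blue, with the mean and SD of 6 libraries per group (for Akr1b3 the median, on a log axis). Miox is lower in the diabetic groups, and Akr1b3 stands at 137.8 CPM in 1 diabetic LXA4 library and 70.47 CPM in 1 nondiabetic vehicle library.

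The study's first comparison set diabetic against nondiabetic cortex, under each treatment and averaged over the treatments. Miox was lower in diabetic cortex under all 3 treatments, Khk and Impa1 were lower with LXA4 and in the average, and the other 4 measured members passed the test in none of the 4 comparisons. Under vehicle 1 of 7 members was called, against 5.6% of all genes tested. With LXA4 3 of 7 were called, against 27.7% of all genes, and with benzo-LXA4 1 of 7, against 4.06%. In the average 3 of 7 were called, against 35.4% of all genes, and 16.6% of all genes were called lower. All called members were lower.

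In none of the 3 comparisons within a treatment did any of the 7 members separate the 6 diabetic from the 6 nondiabetic libraries without overlap. Of all genes, 1.72% separated them upward and 0.852% downward under vehicle, 4.87% and 7.18% with LXA4, and 3.19% and 2.63% with benzo-LXA4.

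Miox, which catalyses the first step of myo-inositol breakdown, had 335.5, 504.6 and 658.3 CPM in diabetic vehicle libraries (lowest, median and highest), against 579.0, 956.2 and 1127 CPM in nondiabetic vehicle libraries. All 6 diabetic vehicle libraries lay below the nondiabetic mean, and 5 of 6 lay below the lowest nondiabetic library. The fold was 0.561 (95% interval 0.438 to 0.719, log2 -0.83 ± 0.18 SE, edgeR adjusted p = 0.00381), and without the 2 shallowest libraries the log2 fold change was -0.76 (adjusted p = 0.00381 by the same test).

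With LXA4, Miox had 424.9, 509.0 and 891.4 CPM in diabetic libraries, against 852.6, 905.4 and 1097 CPM in nondiabetic libraries. The 891.4 CPM came from diabetic replicate 6, the shallowest library, and the other 5 diabetic libraries lay below every nondiabetic library. The fold was 0.604 (0.471 to 0.775, edgeR adjusted p = 0.00328), with a log2 fold change of -0.73, or -0.90 without the 2 shallowest libraries (adjusted p = 0.00019 by the same test).

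With benzo-LXA4, Miox had 393.8, 463.6 and 574.7 CPM in diabetic libraries, against 485.6, 728.9 and 929.0 CPM in nondiabetic libraries. Here 3 of 6 diabetic libraries lay below the lowest nondiabetic one. The fold was 0.653 (0.510 to 0.837, edgeR adjusted p = 0.0395), and the call held when nondiabetic replicate 3, diabetic replicate 3 or diabetic replicate 4 was omitted and was lost without any 1 of the other 9 libraries (adjusted p up to 0.107). It was also lost with the replicate number as a block (log2 -0.60, adjusted p = 0.053 by the same test) and when genes under a mean of 5 CPM were left out (-0.59, adjusted p = 0.0613). Averaged over the treatments the fold was 0.605 (0.524 to 0.698, edgeR adjusted p = 2.26e-06), and it passed the test without any 1 of the 36 libraries.

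**Figure D2:**
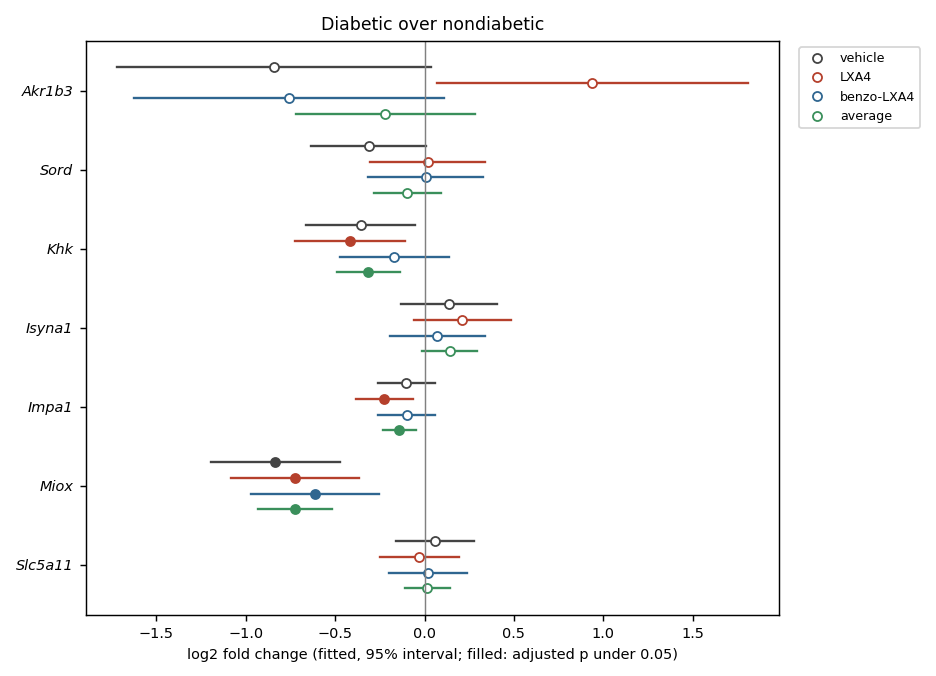
Fitted log2 fold change, diabetic over nondiabetic, of each measured member under each treatment and averaged over the treatments. Bars are 95% intervals and filled points passed an adjusted p of 0.05. The 4 Miox values lie between -0.83 and -0.61, while Akr1b3 lies at 0.94 with LXA4 and below 0 in the other 3 comparisons.

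Markers of proximal tubule moved with these results. Of the 16 markers, 3 were called lower under vehicle, 8 with LXA4, 0 with benzo-LXA4 and 11 in the average, and 0 were called higher. Their median log2 fold changes were -0.37, -0.52, -0.21 and -0.35, against -0.01, 0.05, -0.01 and 0.01 over all genes tested. Their summed CPM ran from 12730 to 19290 in diabetic vehicle libraries and from 16340 to 24160 in nondiabetic vehicle libraries. With LXA4 it ran from 14060 to 18950 in diabetic and from 21460 to 23940 in nondiabetic libraries, and with benzo-LXA4 from 13810 to 18340 in diabetic and from 17770 to 21650 in nondiabetic libraries. In bulk tissue, fewer proximal tubule cells and less RNA per cell cannot be told apart. In the average, 3 of 5 fibroblast and smooth muscle markers, 3 of 6 myeloid markers and 3 of 5 podocyte markers were called higher and 2 of 4 adipose markers lower. Of all genes, 18.8% were called higher and 16.6% lower there. Adipose markers had 0 calls under vehicle and with LXA4, and 4 lower with benzo-LXA4. In that comparison nondiabetic replicate 1 held 463.1 CPM of them, against 9.433 to 45.04 CPM in the rest of its group. The part of any marker list in the members' values was not tested.

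Set against these markers, the members stood in different directions. Per 1000 CPM of summed markers, Miox had 26.36 to 34.62 CPM in diabetic vehicle libraries, against 35.43 to 52.95 CPM in nondiabetic vehicle libraries (up to 46.65 CPM without replicate 3). With LXA4 it had 25.6 to 63.31 CPM in diabetic libraries (up to 34.42 CPM without replicate 6), against 38.9 to 45.82 CPM in nondiabetic libraries. With benzo-LXA4 the ranges overlapped, at 24.53 to 31.34 CPM in diabetic and 27.13 to 42.91 CPM in nondiabetic libraries.

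For Khk the ratio overlapped under vehicle, at 15.05 to 16.99 CPM in diabetic libraries and 13.8 to 22.98 CPM in nondiabetic ones (up to 16.19 CPM without replicate 3), with medians of 16.71 and 14.91. The Khk ranges also overlapped with LXA4 (13.04 to 28.85 CPM in diabetic, 14.78 to 16.57 in nondiabetic libraries) and with benzo-LXA4 (14.53 to 17.53 and 15.09 to 15.7). Sord had 44.95 to 56.14 CPM in diabetic vehicle libraries, against 42.09 to 67.03 CPM in nondiabetic ones (up to 43.58 CPM without replicate 3). With LXA4 it had 44.08 to 114.4 CPM in diabetic libraries (up to 53.42 CPM without replicate 6), against 37.3 to 43.31 CPM in nondiabetic libraries. With benzo-LXA4 it had 46.03 to 53.18 CPM in diabetic libraries, against 38.93 to 44.34 CPM in nondiabetic libraries. Sord thus stood above its nondiabetic range with both compounds, and under vehicle only without replicate 3. Impa1, though lower in CPM with LXA4, had 2.813 to 3.617 CPM per 1000 CPM of markers in diabetic LXA4 libraries, above the 2.445 to 2.81 CPM in nondiabetic LXA4 libraries. Its ranges overlapped under vehicle and with benzo-LXA4. The summed markers themselves ran lower in diabetic libraries, so any gene that fell less than the markers stands higher in such a ratio. The share of all genes with ratios that separate in this way was not computed. These ratios were not tested.

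**Figure D3:**
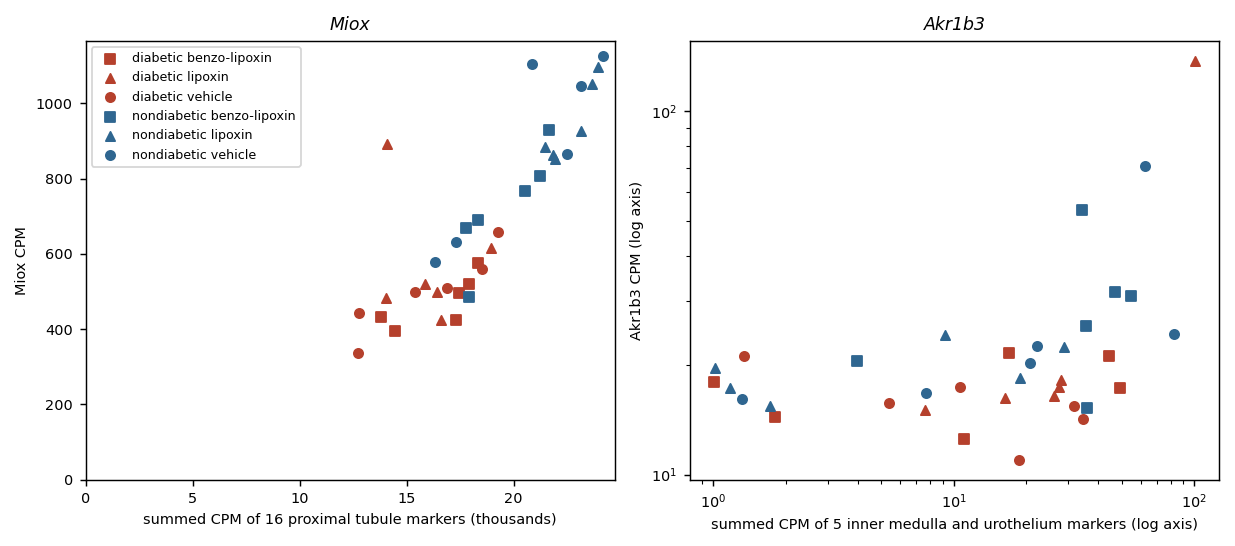
Left, Miox CPM against the summed CPM of 16 proximal tubule markers. Right, Akr1b3 CPM against the summed CPM of 5 inner medulla and urothelium markers, both on log axes. Points are libraries, diabetic in red and nondiabetic in blue, and the library with 137.8 CPM of Akr1b3 also has the highest marker sum, at 101.3 CPM.

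Khk had 183.3, 252.1 and 406.2 CPM in diabetic LXA4 libraries, against 326.7, 355.1 and 389.3 CPM in nondiabetic LXA4 libraries. The 406.2 CPM was again replicate 6, and the other 5 diabetic libraries lay below every nondiabetic one. The fold was 0.748 (0.605 to 0.926, edgeR adjusted p = 0.0373), and the call held when nondiabetic replicate 4 or 5, or diabetic replicate 6, was left out and was lost without any 1 of the other 9 libraries (adjusted p up to 0.1). Without the 2 shallowest libraries the log2 fold change was -0.57 (edgeR adjusted p = 0.00097), against -0.42 with them. The call was also lost when genes under a mean of 5 CPM were left out (adjusted p = 0.0666 in edgeR) and in a fit of only the groups compared (adjusted p = 0.0782).

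Under vehicle Khk had 192.2, 260.7 and 323.4 CPM in diabetic libraries, against 264.3, 320.9 and 479.5 CPM in nondiabetic libraries. The groups overlapped, and the fold of 0.78 (0.631 to 0.965) did not pass (edgeR adjusted p = 0.16). The 479.5 CPM was nondiabetic replicate 3, and without the 2 shallowest libraries the log2 fold change was -0.22 (edgeR adjusted p = 0.271). With benzo-LXA4 the fold was 0.89 (0.72 to 1.10, edgeR adjusted p = 0.628). Averaged over the treatments Khk fell, at a fold of 0.804 (0.711 to 0.909, edgeR adjusted p = 0.00523), and the call held without any 1 of the 36 libraries.

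Sord, the second polyol enzyme, passed no test. It had 701.9, 736.4 and 934.6 CPM in diabetic vehicle libraries, against 687.7, 977.4 and 1399 CPM in nondiabetic vehicle libraries, at a fold of 0.805 (0.644 to 1.01, log2 -0.31, edgeR adjusted p = 0.251), or a log2 fold change of -0.18 without the 2 shallowest libraries (adjusted p = 0.335 by the same test). Its highest and second highest values over all libraries, 1611 CPM in diabetic LXA4 replicate 6 and 1399 CPM in nondiabetic vehicle replicate 3, came from the 2 shallowest libraries. With LXA4 its log2 fold change was 0.02 (edgeR adjusted p = 0.947), and -0.21 without these libraries. With benzo-LXA4 it was 0.01, and averaged over the treatments -0.10 (edgeR adjusted p = 0.436).

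Akr1b3, the entry enzyme of the polyol pathway, was low and even in most libraries and high in a few. It had 10.99, 15.57 and 21.15 CPM in diabetic vehicle libraries, against 16.14, 21.39 and 70.47 CPM in nondiabetic vehicle libraries, and 4 of 6 diabetic libraries lay below the lowest nondiabetic one. The log2 fold change was -0.84 ± 0.43 SE (edgeR adjusted p = 0.258), and -0.32 (adjusted p = 0.674) without nondiabetic replicate 2, the library at 70.47 CPM. With benzo-LXA4 it had 12.51, 17.63 and 21.61 CPM in diabetic libraries, against 15.26, 28.33 and 53.36 CPM in nondiabetic libraries (log2 -0.76, edgeR adjusted p = 0.375), and the log2 value was -0.50 without nondiabetic replicate 6, the library at 53.36 CPM.

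With LXA4 the sign turned on 1 library. Akr1b3 had 15.01, 16.95 and 137.8 CPM in diabetic libraries, against 15.43, 19.07 and 24.29 CPM in nondiabetic libraries. The log2 fold change was 0.94 (edgeR adjusted p = 0.0955), and -0.24 (adjusted p = 0.556 by the same test) without diabetic LXA4 replicate 5, the library at 137.8 CPM. Averaged over the treatments it was -0.22 (edgeR adjusted p = 0.516), and -0.62 (adjusted p = 0.00338) without that library, the only 1 of 36 whose omission brought a call. That omission removes the highest Akr1b3 value, in a diabetic library, and keeps the high nondiabetic libraries at 70.47 and 53.36 CPM. The call is therefore no evidence that Akr1b3 is lower in diabetic cortex.

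The 3 libraries highest in Akr1b3 were diabetic LXA4 replicate 5, nondiabetic vehicle replicate 2 (70.47 CPM) and nondiabetic benzo-LXA4 replicate 6 (53.36 CPM). Their summed markers of inner medulla and urothelium were 101.3, 62.67 and 34.32 CPM, at ranks 1, 3 and 11 of 36. The library at rank 2 in these markers, nondiabetic vehicle replicate 4 with 82.46 CPM, had 24.32 CPM of Akr1b3, at rank 7. Of its sum, 75 CPM was Slc14a2, so that library says little about the urothelial markers. Among those, Upk1b was highest in diabetic LXA4 replicate 5 (11.8 CPM), and Upk1a, Upk3a and Krt5 in nondiabetic benzo-LXA4 replicate 1. By group these sums ran from 7.588 to 101.3 CPM in diabetic LXA4 libraries, from 1.009 to 49.11 CPM in diabetic benzo-LXA4 libraries and from 1.34 to 34.46 CPM in diabetic vehicle libraries. They ran from 1.014 to 28.83 CPM in nondiabetic LXA4 libraries, from 3.972 to 54.58 CPM in nondiabetic benzo-LXA4 libraries and from 1.324 to 82.46 CPM in nondiabetic vehicle libraries. The part of these markers in the Akr1b3 values was not tested.

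Of the inositol synthesis enzymes, Impa1 was lower with LXA4 and in the average, by small amounts. It had 46.05, 51.35 and 54.8 CPM in diabetic LXA4 libraries, against 53.34, 59.42 and 64.76 CPM in nondiabetic LXA4 libraries, and 5 of 6 diabetic libraries lay below the lowest nondiabetic one. The fold was 0.856 (0.767 to 0.956, edgeR adjusted p = 0.0318), and the call was lost when nondiabetic replicate 5 or 6, or diabetic replicate 3 or 6, was left out (adjusted p up to 0.0772). It was also lost when genes under a mean of 5 CPM were left out (edgeR adjusted p = 0.0745) and in a fit of only the groups compared (adjusted p = 0.055), and held without the 2 shallowest libraries (log2 -0.21 against -0.22, adjusted p = 0.0298).

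Averaged over the treatments the Impa1 fold was 0.906 (0.850 to 0.966, edgeR adjusted p = 0.0144). The call held without any 1 of the 36 libraries and was lost with a filter at a mean of 5 CPM (adjusted p = 0.0534). Under vehicle and with benzo-LXA4 the log2 fold change was -0.10 each (edgeR adjusted p = 0.482 and 0.57). Nondiabetic vehicle replicate 3, a shallow library, had the lowest Impa1 value of its group, at 42.79 CPM. With each library left out in turn, the vehicle value ran from -0.16 to -0.05 (edgeR adjusted p of at least 0.27).

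Isyna1, which catalyses the committed step of inositol synthesis, had 19.34, 22.41 and 28.62 CPM in diabetic vehicle libraries, against 15.53, 20.38 and 27.28 CPM in nondiabetic vehicle libraries. Its log2 fold changes were 0.14 under vehicle, 0.21 with LXA4, 0.07 with benzo-LXA4 and 0.14 in the average, and the smallest edgeR adjusted p was 0.15. The sign was positive under each of the 3 treatments, and so by construction in their average, but the groups overlapped under each treatment. Over the 36 libraries the Pearson correlation of log2 CPM of Isyna1 with the inner medulla marker Slc14a2 was 0.592. It was 0.616 after subtraction of group means, against 0.36 and 0.303 for Akr1b3 with Slc14a2. The part of such markers in the Isyna1 values was not tested.

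The inositol transporter Slc5a11 had 58.78, 73.47 and 82.81 CPM in diabetic vehicle libraries, against 53.66, 68.31 and 82.20 CPM in nondiabetic vehicle libraries. Its log2 fold changes were 0.06, -0.03, 0.02 and 0.02 in the 4 comparisons, and in the average the 95% interval ran from -0.11 to 0.14. Per 1000 CPM of proximal tubule markers it had 3.752 to 5.978 CPM in diabetic vehicle libraries, against 2.779 to 3.963 CPM in nondiabetic vehicle libraries. This ratio was not tested and has the same limit as those above, since the summed markers ran lower in diabetic libraries.

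Slc5a3, the other inositol transporter, spans chr16:92058322-92087473, and its first exon of 159 bases lies wholly within an exon of Mrps6, a mitochondrial ribosomal protein gene that had a row. Mrps6 had 55.9, 92.49 and 181.3 CPM in diabetic vehicle libraries, against 62.41, 90.63 and 149.6 CPM in nondiabetic vehicle libraries. Its log2 fold changes were 0.17 under vehicle, 0.57 with LXA4, -0.0025 with benzo-LXA4 and 0.25 in the average, with edgeR adjusted p of at least 0.106. The longest exon of Slc5a3, of 10754 bases, shares 0 bases with Mrps6, so the Mrps6 values are no measure of the transporter. Whether any of these reads came from Slc5a3 was not resolved by counts per gene, so no level is given for the transporter.

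The second comparison set each compound against vehicle. No member passed the test with LXA4 or benzo-LXA4, in diabetic or nondiabetic mice, or in the interaction of either compound with diabetes. In diabetic mice, 0 of 7 members were called with LXA4, against 0.356% of all genes (0.312% higher and 0.0445% lower), and 1 had an unadjusted p under 0.05. With benzo-LXA4 in diabetic mice, and with each compound in nondiabetic mice, 0 of 7 members and 0 of all genes (0%) were called by edgeR. In these 3 comparisons 0 of 7 members, and 891, 967 and 452 of all genes, had an unadjusted p under 0.05. DESeq2 called 52, 3 and 2 genes there, and limma voom 105, 3 and 0. The interactions called 0 of 7 members, against 0.248% of all genes for LXA4 (0.21% higher and 0.0382% lower) and 0% for benzo-LXA4, where 673 genes had an unadjusted p under 0.05 and DESeq2 and voom also called 0. In all 6 of these comparisons DESeq2 and limma voom also called 0 members.

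Compound and vehicle libraries overlapped for every one of the 7 members in each state. Of all genes, 0.458% separated the groups upward and 0.362% downward with LXA4 in diabetic mice, and 0.68% and 0.553% with benzo-LXA4 in diabetic mice. In nondiabetic mice the shares were 0.191% upward and 0.254% downward with LXA4, and 0.0382% and 0.0699% with benzo-LXA4.

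Among the members, the value of Akr1b3 was the only 1 with an unadjusted p under 0.05 in diabetic mice. Its log2 fold change with LXA4 in diabetic mice was 1.25 ± 0.43 SE (edgeR adjusted p = 0.186), with 15.01, 16.95 and 137.8 CPM in diabetic LXA4 libraries, against 10.99, 15.57 and 21.15 CPM in diabetic vehicle libraries. Without diabetic LXA4 replicate 5 it was 0.08 (edgeR adjusted p = 0.922). The interaction of LXA4 with diabetes was 1.78 ± 0.61 SE (edgeR adjusted p = 0.17), and 0.60 (adjusted p = 0.413) without that library.

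Miox had a log2 fold change of 0.19 with LXA4 in diabetic mice (95% interval -0.16 to 0.55), and -0.08 with benzo-LXA4 (-0.44 to 0.28). In nondiabetic mice the values were 0.08 with LXA4 (-0.27 to 0.44) and -0.30 with benzo-LXA4 (-0.66 to 0.06). For Khk the values in diabetic mice were 0.04 with LXA4 (-0.26 to 0.35) and 0.03 with benzo-LXA4 (-0.28 to 0.33). For Sord they were 0.26 with LXA4 (-0.06 to 0.58) and 0.07 with benzo-LXA4 (-0.25 to 0.39). These intervals leave room for changes in either direction, and the compounds were given at different doses, so they were not compared with each other. With each library left out in turn, the LXA4 value in diabetic mice ran from 0.02 to 0.29 for Miox and from 0.03 to 0.36 for Sord. The shallowest library, diabetic LXA4 replicate 6, was the highest of its group in both genes (891.4 and 1611 CPM).

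**Figure D4:**
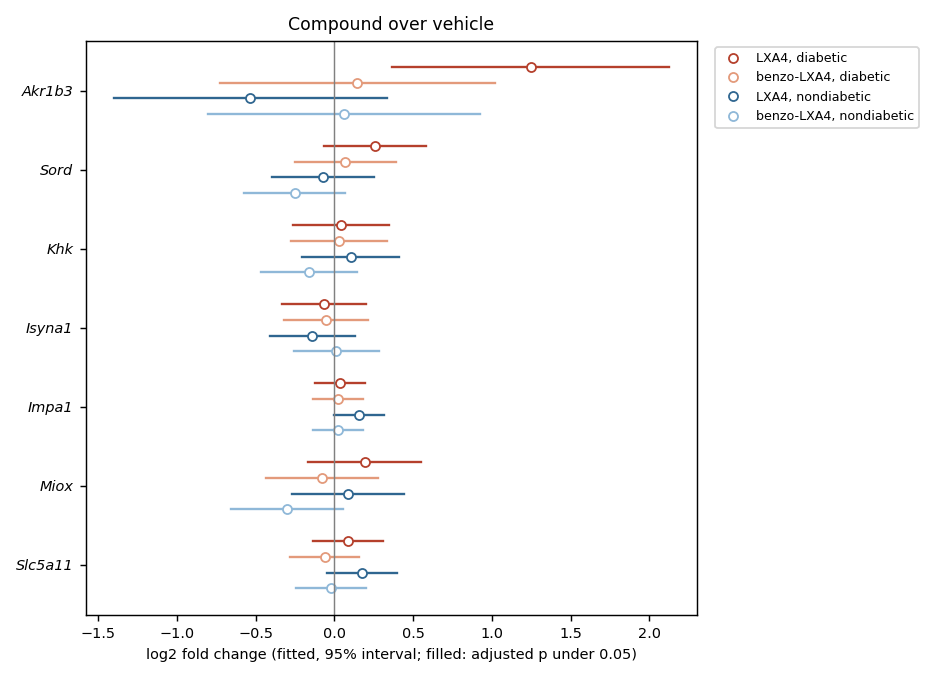
Fitted log2 fold change, compound over vehicle, of each measured member in diabetic and nondiabetic mice, with 95% intervals; no point is filled, since none passed an adjusted p of 0.05. The widest intervals are those of Akr1b3, whose LXA4 value in diabetic mice is 1.25.

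Impa1 had the narrowest intervals. With LXA4 its log2 fold change was 0.03 in diabetic mice (-0.13 to 0.19) and 0.16 in nondiabetic mice (-0.0026 to 0.31, edgeR adjusted p = 0.826). With benzo-LXA4 it was 0.03 in diabetic mice (-0.13 to 0.18) and 0.02 in nondiabetic mice (-0.14 to 0.18). For Isyna1 the 4 values ran from -0.14 to 0.01, and for Slc5a11 from -0.06 to 0.18, the highest being LXA4 in nondiabetic mice.

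Other genes of these pathways were taken from lists of 34 measured genes. In the diabetes comparisons, 0 of 34 were called higher and 2 lower under vehicle, 1 higher and 6 lower with LXA4, 0 either way with benzo-LXA4 (5 with an unadjusted p under 0.05), and 2 higher and 10 lower in the average. The shares of all genes called lower in these comparisons were 2.16%, 12.3%, 1.25% and 16.6%, and those called higher 3.44%, 15.4%, 2.81% and 18.8%. The median log2 fold change of the 34 genes was -0.11 in the average, against 0.01 over all genes. In the 6 comparisons with a compound term, edgeR called 0 of the 34, and 1 to 6 had an unadjusted p under 0.05.

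In fructose breakdown, 1 of 5 genes was lower in the average and 0 were higher. Glyctk, the glycerate kinase that takes up the last product of the pathway, had 127.7 ± 27.7 CPM in diabetic vehicle libraries and 196.0 ± 48.2 CPM in nondiabetic vehicle libraries (SD, n = 6 each). Its folds were 0.652 under vehicle (edgeR adjusted p = 0.00945), 0.696 with LXA4 (adjusted p = 0.00855) and 0.703 in the average (adjusted p = 2.4e-05). Slc2a5, the fructose transporter GLUT5, had a log2 fold change of 0.02 in the average (edgeR adjusted p = 0.928).

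Downstream of Miox, 1 of 5 genes passed in the average, with Akr1a1 counted here and among the aldo-keto reductases. Dcxr, the xylulose reductase of the glucuronate route, was lower with LXA4 at a log2 fold change of -0.44 (edgeR adjusted p = 0.024) and in the average at -0.27. Among 4 aldo-keto reductases related to Akr1b3, Akr1b10 was lower with LXA4 at -0.48 (edgeR adjusted p = 0.0016) and in the average at -0.31, while Akr1b7, Akr1b8 and Akr1a1 passed in none, with 0.31, 0.39 and -0.13 in the average.

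Of 13 genes of inositol phosphate turnover and inositol transport, 2 were higher and 4 lower in the average. Impa2, the second inositol monophosphatase, had 13.9 ± 3.3 CPM in diabetic LXA4 libraries and 9.56 ± 0.95 CPM in nondiabetic LXA4 libraries (SD, n = 6 each), at a fold of 1.42 (edgeR adjusted p = 0.013), and 1.23 in the average (adjusted p = 0.00795). Bpnt1, a lithium-sensitive phosphatase of nucleotides and inositol phosphates, was lower with LXA4 at a log2 fold change of -0.41 (edgeR adjusted p = 0.000376). The inositol phosphate kinase Ipmk was lower with LXA4 at -0.57 (adjusted p = 0.00345 in edgeR), and Itpk1 was lower under vehicle at -0.33 (adjusted p = 0.0208) and in the average at -0.15.

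Of 8 genes of the osmolyte and tonicity response, 3 heat shock protein genes were lower in the average and 0 were higher. Hspa4l was lower with LXA4 at a log2 fold change of -0.74 (edgeR adjusted p = 0.00152) and in the average at -0.50. Hspa1a was lower in the average at -0.81 (edgeR adjusted p = 0.0233), and reads of Hspa1a and its near-identical copy Hspa1b may have been split. Nfat5, the tonicity-responsive transcription factor of Akr1b3 and Slc5a3, had 0.01 in the average (edgeR adjusted p = 0.944), and the betaine transporter Slc6a12 had 0.80 (adjusted p = 0.111).

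**Figure D5:**
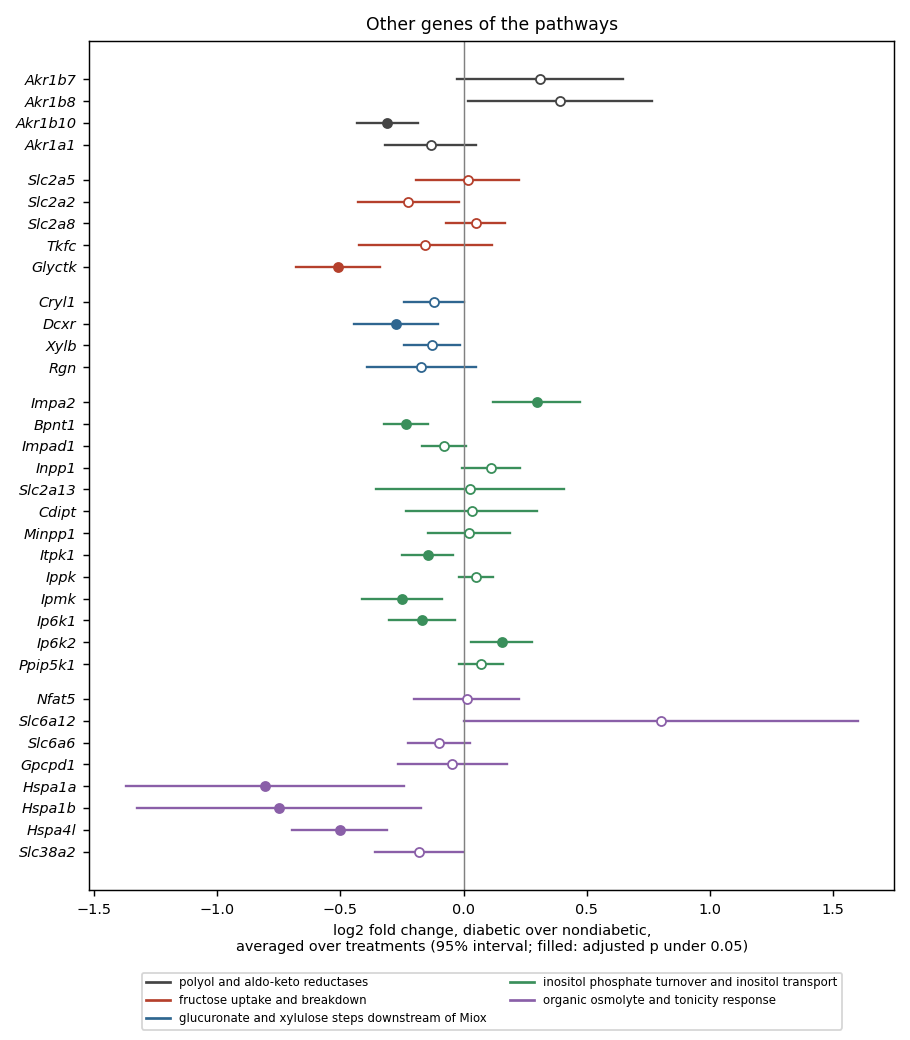
Fitted log2 fold change, diabetic over nondiabetic and averaged over treatments, of 34 other genes of these pathways, coloured by list, with 95% intervals. Filled points passed an adjusted p of 0.05, 10 of them below 0 and 2 above.

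Across the 36 libraries, Pearson correlations of log2 CPM put Khk beside Miox (r = 0.835) and Sord (r = 0.816), while Akr1b3 and Sord, neighbours in the polyol pathway, had r = -0.274. After subtraction of group means these were 0.77 for Khk and Miox, 0.884 for Khk and Sord, and -0.415 for Akr1b3 and Sord. The libraries differed in depth and cell make-up, which bear on all genes of a library, so these values describe this set of libraries. Diabetic LXA4 replicate 6, the shallowest library, was the highest of its group in Khk (406.2 CPM), Miox (891.4 CPM) and Sord (1611 CPM). The part of depth or cell make-up in these correlations was not tested.

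The 3 genes nearest to each member over the same 36 libraries were as follows. Nearest to Miox were the folate receptor gene Folr1 (r = 0.942), Aldh8a1 (0.936) and Arl6ip1 (0.926). Khk lay nearest to Cideb (0.965), Erich4 (0.934) and Apeh (0.928), and Sord to Acaa1a (0.94), Qdpr (0.935) and Mocs2 (0.926). For Akr1b3 they were the retinaldehyde dehydrogenase gene Aldh1a3 (0.854), Gcnt3 (0.829) and Rtn1 (0.809). The same library was highest in all of these, with 88.97 CPM of Aldh1a3 in diabetic LXA4 replicate 5, and 46.3 CPM in nondiabetic vehicle replicate 2. Impa1 lay nearest to Cyp2j13 (0.857), Hus1 (0.818) and Smap1 (0.817), Isyna1 to Pfkp (0.8), Aspn (0.794) and Capn2 (0.786), and Slc5a11 to Ctsz (0.734), 5031439G07Rik (0.701) and Insc (0.698).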

How the data were processed

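A single table of 36 libraries was deposited, holding whole-number read counts for each gene, with no normalization. The submitters' processing notes name bcl2fastq 2.17.1.14, STAR, featureCounts and the build GRCm38. The labels' protocols give 200 ng of total RNA, removal of ribosomal RNA and a directional kit. Versions of STAR and featureCounts, the annotation, the strand setting and the treatment of multi-mapping reads: not given in the sources used here. Every gene in the table had at least 370 counts in total, so rarer genes have no row. No 2 libraries held identical counts.

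The counts were tested as deposited with edgeR 4.0.16 (quasi-likelihood test, R 4.3.3), with TMM scaling and edgeR's low-count filter, which kept 15726 genes. All 36 libraries entered 1 fit with 6 group means, and p-values were Benjamini-Hochberg adjusted over all genes tested, with a threshold of 0.05 and no minimum fold. CPM uses the TMM-scaled total. DESeq2 1.42.0, limma 3.58.1 (voom with quality weights), other scaling and filters, a replicate block and the omission of each library were alternatives, and the steps were tested on simulated data. Depth (8896193 to 43305005 counts per library) and the number of libraries limit the precision, and the 95% intervals come from the fitted spread.

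Members and lists were chosen with earlier results of these data known. Named were the members, in each comparison at most 10 called pathway genes by adjusted p, and the 3 genes nearest to each member. Outside this rule, Slc2a5, Nfat5, Slc6a12, Akr1b7, Akr1b8 and Akr1a1 were also named, although they passed in no comparison. Of the pathway lists, 1 gene is not reported here and was left out of their counts. The 3 choices made after the values were seen were the 4 noncoding genes that set the 2 shallowest libraries apart (Gm26917, Gm42418, Gm23935 and Rpph1), the promoters shown, and the use of the principal transcript for levels per kilobase. An alternative without the libraries highest in Akr1b3, taken out together, was dropped, since it would select samples by outcome. The Akr1b3 values given without 1 library come from leaving out each library in turn. Those shown were picked by their high Akr1b3 level, so they describe dependence on 1 library only. Locations came from GENCODE M21 (GRCm38), and promoters from RefSeq.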

Additional observations from a re-analysis of the deposited data

Results flagged for a closer look

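In a screen of 42 sets of 6 libraries (7 measured members in 6 groups), 5 had a library far from the others of its group, where chance gives about 1 in 20. Akr1b3 was far above its group in diabetic LXA4 replicate 5, at 137.8 CPM, and in nondiabetic vehicle replicate 2, at 70.47 CPM. These libraries ranked 1 and 3 of 36 in summed inner medulla and urothelium markers, and the library at rank 2, nondiabetic vehicle replicate 4, had 24.32 CPM of Akr1b3. The sum at rank 2 was mostly Slc14a2 (75 of 82.46 CPM). In diabetic LXA4 replicate 6, the shallowest library, Sord stood at 1611 CPM and Khk at 406.2 CPM, both above the rest of their group. Sord was low in nondiabetic LXA4 replicate 2, at 817.6 CPM, against 926.0 to 976.1 CPM in the other 5 libraries of that group.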

How the results depend on the processing

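The Miox calls under vehicle, with LXA4 and in the average, and the Khk call in the average, passed under every alternative run, and so did the 0 members called in the 6 comparisons with a compound term. Genes called for diabetes under vehicle (881) came to 1330 with DESeq2, 2221 with voom, 442 with a filter at a mean of 5 CPM, 342 with only the groups compared and 1399 without the 2 shallowest libraries. With benzo-LXA4 (638) they came to 1064, 2568, 313, 1875 and 1906 in the same order. With LXA4 (4353), voom called 6954 and the fit of only the groups compared 2338. For LXA4 in diabetic mice (56) the counts were 231 with DESeq2, 172 with voom, 1 with only the groups compared and 93 without the 2 shallowest libraries, and for the LXA4 interaction (39) they were 266, 211, 0 and 129, and 80 with the 5 CPM filter. For benzo-LXA4 in diabetic mice (0) they were 52, 105, 3 and 48. For nondiabetic mice (0) DESeq2 called 3 with LXA4 and 2 with benzo-LXA4, and voom 3 with LXA4. Members called for diabetes with LXA4 fell to 1 of 7 with the 5 CPM filter and with only the groups compared, where Khk and Impa1 were lost, and with benzo-LXA4 to 0 with the 5 CPM filter and with the replicate block. The cause was not tested.

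The main fit used no pairing by replicate number. In no comparison were all 6 same-numbered correlations over 0.1. With benzo-LXA4 in nondiabetic mice 5 of 6 were, and the correlations ran from 0.0889 to 0.409. Whether the numbers mark a pairing or a shared batch was not tested. With the number as a replicate block, genes called were 28 for LXA4 in diabetic mice and 9 for the LXA4 interaction, Miox with benzo-LXA4 had an adjusted p of 0.053, and no other member call changed. Under the block, log2 values turned to -0.0059 for Sord (diabetes with LXA4), and in the benzo-LXA4 interaction to -0.056 for Akr1b3 and -0.0017 for Impa1.

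Of 553 member values under the other alternatives 21 changed sign, and of 1176 with 1 library left out 70 did. In 0 of these was either value called, so the changes of sign concern uncalled values. With voom the changed log2 values were -0.15 for Sord (diabetes with LXA4), for LXA4 in diabetic mice -0.060 for Khk, -0.041 for Miox and -0.016 for Slc5a11, -0.041 for Impa1 (benzo-LXA4, nondiabetic), for the LXA4 interaction -0.057 for Isyna1 and -0.10 for Miox, and -0.37 for Akr1b3 (benzo-LXA4 interaction). Without the 2 shallowest libraries they were -0.21 for Sord (diabetes with LXA4), -0.12 for Khk (LXA4, diabetic), 0.063 for Sord (LXA4, nondiabetic), for benzo-LXA4 in nondiabetic mice -0.019 for Impa1 and 0.035 for Slc5a11, and for the LXA4 interaction -0.034 for Sord and -0.14 for Miox. The 5 CPM filter gave 0.024 for Slc5a11 (diabetes with LXA4) and -0.0049 for Impa1 (benzo-LXA4 interaction), which was -0.0066 with only the groups compared.

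With each library left out in turn, genes called ran from 441 to 1338 for diabetes under vehicle, 389 to 606 with benzo-LXA4, 0 to 88 for LXA4 in diabetic mice and 0 to 106 for the LXA4 interaction, and members called from 1 to 3 for diabetes with LXA4 and 0 to 1 with benzo-LXA4. The log2 ranges of members that changed sign were, for diabetes with LXA4, -0.24 to 1.10 (Akr1b3), -0.10 to 0.030 (Slc5a11) and -0.20 to 0.11 (Sord), with benzo-LXA4 -0.038 to 0.055 (Slc5a11) and -0.036 to 0.053 (Sord), and in the average -0.0050 to 0.041 (Slc5a11). For LXA4 in diabetic mice they were -0.0063 to 0.064 (Impa1), -0.11 to 0.012 (Isyna1) and -0.11 to 0.14 (Khk), and in nondiabetic mice -0.014 to 0.16 (Miox) and -0.16 to 0.061 (Sord). For benzo-LXA4 in diabetic mice they were -0.023 to 0.063 (Impa1), -0.12 to 0.025 (Isyna1), -0.037 to 0.10 (Khk) and -0.17 to 0.013 (Miox), and in nondiabetic mice -0.19 to 0.58 (Akr1b3), -0.019 to 0.071 (Impa1), -0.059 to 0.12 (Isyna1) and -0.075 to 0.036 (Slc5a11). For the LXA4 interaction they were -0.025 to 0.15 (Isyna1), -0.21 to 0.032 (Khk) and -0.063 to 0.21 (Miox), and for the benzo-LXA4 interaction -0.43 to 0.34 (Akr1b3), -0.048 to 0.044 (Impa1), -0.17 to 0.0059 (Isyna1) and -0.098 to 0.019 (Slc5a11).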
